A study of Mus musculus with 2 samples.

Results

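Proneural bHLH factors are transcription factors with a basic helix-loop-helix domain that start and then drive the formation of neurons from neural progenitors. The members described here are the 9 genes Neurog1, Neurog2, Neurog3, Neurod1, Neurod2, Neurod4, Neurod6, Atoh1 and Ptf1a, taken by symbol from a table of 45777 genes, and all 9 were found. RNA was measured in a pair of mouse teratoma samples, named E14 and E14-Sox2TA/WT below after the injected cells, with 1 library each. E14 is a mouse embryonic stem cell (ESC) line with wild-type Sox2, and in E14-Sox2TA/WT cells 1 allele of Sox2 encodes alanine in place of threonine 258 (T258A), while the other allele is wild type. The change was made with CRISPR-Cas9 in E14 cells. Single sorted cells were grown into clones with kinase inhibitors, and clones with the change were selected by DNA sequencing. Experiments used cells after the inhibitors were removed. Whether the teratomas came from 1 clone or several is not stated. Cells were inoculated under the skin of BALB/c-nu mice, an immunodeficient strain, in 3 mice per group, and teratomas were harvested 14 days later. A teratoma is a tumour that holds tissues of several germ layers, and it also contains host vessels and blood cells. The age of the mice and the number of teratomas behind each library are not given in the sources used here.

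Proneural factors pair with widely expressed E proteins, and the pairs bind short DNA motifs of the form CANNTG, called E-boxes. Determination factors such as the neurogenins act in dividing progenitors, where they turn on Notch ligands and the differentiation factors of the Neurod group, which act in young neurons. Id proteins capture E proteins and so inhibit the pairs, and Hes and Hey proteins, which Notch signaling induces, repress proneural genes. Sox2 maintains neural progenitors, and the study compared the libraries to learn which genes differ in teratomas of the Sox2 T258A mutant.

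The promoters of 4 members are shown, because 2 neurogenins with unequal change share letters there, and because Neurod2 and Neurod4 stood at the opposite ends of the Neurod group. They come from RefSeq on GRCm38.p6 and run 5′ to 3′ over the 250 bases before the annotated start. Capitals mark E-boxes (CANNTG) and the Sox core motif ATTGTT or its reverse complement AACAAT. The Neurog1 sequence is chr13:56252181-56252430 on the minus strand, and that of Neurog2 is chr3:127632886-127633135 on the plus strand. That of Neurod2 is chr11:98329646-98329895 and that of Neurod4 is chr10:130280255-130280504, both on the minus strand.
Neurog1: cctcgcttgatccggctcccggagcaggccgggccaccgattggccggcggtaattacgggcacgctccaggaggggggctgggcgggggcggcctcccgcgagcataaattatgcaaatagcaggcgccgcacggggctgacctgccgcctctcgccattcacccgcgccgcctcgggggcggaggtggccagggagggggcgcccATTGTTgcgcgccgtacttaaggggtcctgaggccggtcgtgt
Neurog2: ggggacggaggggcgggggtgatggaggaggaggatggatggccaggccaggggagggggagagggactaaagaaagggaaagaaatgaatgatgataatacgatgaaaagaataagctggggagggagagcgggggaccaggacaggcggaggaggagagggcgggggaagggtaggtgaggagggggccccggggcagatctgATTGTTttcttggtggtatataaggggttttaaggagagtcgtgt
Neurod2: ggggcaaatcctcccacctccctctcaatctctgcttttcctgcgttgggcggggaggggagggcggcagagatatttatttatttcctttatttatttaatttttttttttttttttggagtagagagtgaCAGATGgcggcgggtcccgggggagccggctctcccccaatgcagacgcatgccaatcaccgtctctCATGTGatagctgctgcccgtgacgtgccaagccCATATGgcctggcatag
Neurod4: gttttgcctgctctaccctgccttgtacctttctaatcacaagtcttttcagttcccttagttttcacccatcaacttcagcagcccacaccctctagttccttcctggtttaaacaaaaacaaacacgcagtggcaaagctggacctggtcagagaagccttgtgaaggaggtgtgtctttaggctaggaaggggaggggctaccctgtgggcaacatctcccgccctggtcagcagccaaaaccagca

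The Sox core motif was present in 2 of the 9 member promoters, those of Neurog1 and Neurog2, and in 9.42% of 32851 RefSeq promoters of the same length. It began 43 bases before the start of Neurog1 and 45 bases before the start of Neurog2, in the same orientation. These promoters also shared the run GTCGTGTGCCA, which began 7 bases before the start in both, ran past it, and was held by 2 of the 32851 promoter windows when the 50 bases after the start were included. It came from a search for the longest run in every pair of members, and other pairs also shared runs of that length or longer. The longest, 15 bases of T alone, was shared by Atoh1 and Neurod2 and held by 329 windows. Neurog1 and Neurod4 shared a run of 12 bases, held by 5 windows. Runs of 11 bases were shared by Neurog1 and Neurod1 (11 windows) and by Atoh1 and Ptf1a (7 windows). E-boxes occurred in 4 of the 9 promoters, compared with 66.2% of all promoters. Neurod2 had 3, Neurod6 had 2, and Neurog3 and Neurod1 had 1 each. The form CATATG was found in Neurod1 and Neurod2 and in 3.46% of all promoters, and CAGATG or CATCTG was found in Neurod2 and in 14.4% of all promoters. The N-box CACNAG or CTNGTG, to which Hes proteins bind, had 2 matches in Neurod4 and 3 in Neurod6 and was present in 36.7% of all promoters. Both strands were searched for every motif. The RefSeq entry of Neurog2 begins further upstream, at 127632733, and holds 2 transcript models, and Neurod4 has 2 listed promoters, of which the more upstream is shown. These matches describe letters and not binding.

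The depth was 50529171 reads on genes for E14 and 49030281 for E14-Sox2TA/WT. With 1 library per group, no difference has a replicate check, and intervals given below are 95% exact intervals of the read counts, or approximate ones for sums, which cover counting error only. In bulk tissue, fewer cells of a type and less RNA per cell cannot be told apart. The libraries stood apart in several ways. The Y-linked genes Ddx3y, Eif2s3y, Kdm5d and Uty together had 5453 reads in E14 and 0 in E14-Sox2TA/WT. The mitochondrial share was 5.17% and 9.70% of the TPM, respectively. Of the neuron markers, 9 of 9 were lower in E14-Sox2TA/WT, with a summed TPM of 2647 and 392. Neural progenitor markers were lower in 8 of 8, at 4624 and 1890, and pluripotency markers were higher in 8 of 8, at 83.0 and 1892. The part of these shifts in the results on the members was not tested. Besides neurons, both libraries held transcripts of skeletal muscle (6 of 6 markers lower in E14-Sox2TA/WT), macrophages (6 of 6 higher) and cartilage (2 of 4 with a TPM of at least 1 higher). The cartilage markers below that TPM, Matn1 (0 and 46 reads) and Comp (11 and 49 reads), were also higher in E14-Sox2TA/WT. Sox2 itself had a TPM of 246 and 130, 1.89-fold lower (1.84 to 1.94) in E14-Sox2TA/WT, and its alleles were not separated.

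TPM scales read counts by transcript length and by library, so levels can be compared between genes. The 9 members together had a TPM of 45.2 in E14 and 22.7 in E14-Sox2TA/WT, 1.99-fold lower (1.86 to 2.13). Members went in both directions, however. Neurog2, Neurod1, Neurod2 and Neurod6 were lower, with a summed TPM of 37.5 and 10.9. Neurod4, Neurog3, Ptf1a and, on few reads, Atoh1 were higher, with 3.96 and 8.44. These sums were grouped by direction and only describe its size. Neurog1 differed by less than counting error. The plot of levels gives each member in both libraries.

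**Figure D1:**
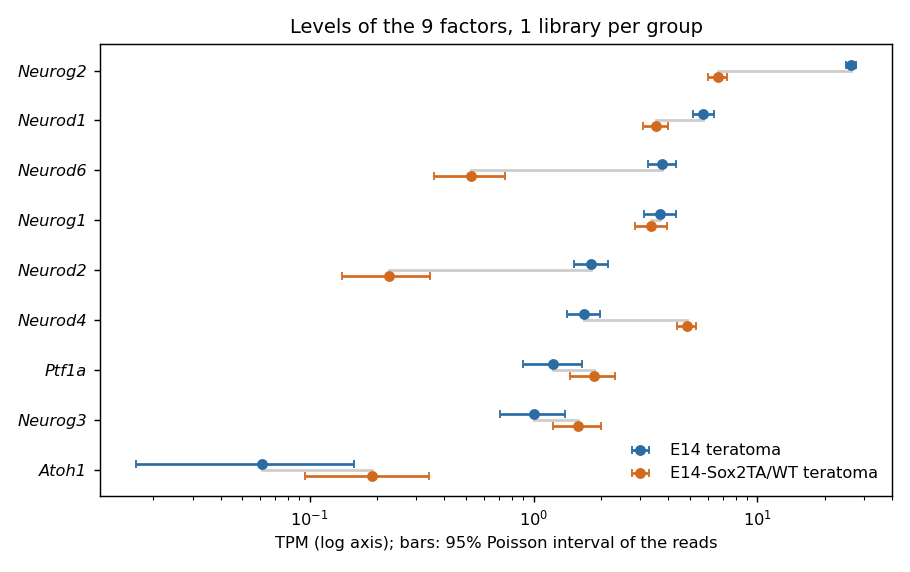
TPM on a log axis of the 9 factors in the E14 teratoma library (blue) and the E14-Sox2TA/WT teratoma library (orange), with bars for the 95% Poisson interval of the reads. Neurog2 is the highest in both libraries, at 26.3 and 6.65, and Atoh1 the lowest, at 0.061 and 0.19.

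Neurog2 marks progenitors of the dorsal telencephalon, spinal cord and sensory ganglia and was the most abundant member in both libraries. Its gene lies on chromosome 3 from 127632733 to 127635636 on the plus strand and has 2 exons. It had 1413 reads in E14 and 398 in E14-Sox2TA/WT, or a TPM of 26.3 and 6.65. It was 3.95-fold lower (3.53 to 4.42). It was also the only member whose TPM reached 10 in either library, and so the only one that the study's rule for differentially expressed genes (DEGs), a fold change above 2 at that level, could reach. Of all 11578 genes at that level, 18.7% were lower by the rule and 10.8% were higher (2167 and 1253 genes, or 1655 and 1583 with FPKM), so the single member past it is no result about the family. The study itself reported fewer genes in each direction, and why the counts differ was not tested.

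Neurog1 is the closest relative of Neurog2 and acts in cranial sensory neurons and in the neural tube. It lies on chromosome 13 from 56250478 to 56252180 on the minus strand, in 1 exon. It had 151 reads in E14 and 154 in E14-Sox2TA/WT, or a TPM of 3.68 and 3.36. The ratio of the E14-Sox2TA/WT to the E14 library was 0.912 (0.724 to 1.15), an interval that holds no change, and its direction turned with FPKM or with reads scaled by library total. Thus, the TPM of Neurog2 was 7.13 times that of Neurog1 in E14 (6.03 to 8.49) and 1.98 times in E14-Sox2TA/WT (1.64 to 2.40). This ratio is taken within each library and does not depend on the scaling between libraries.

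Neurog3 starts the endocrine lineage of the pancreas and gut and is also expressed in parts of the nervous system and in male germ cells. It lies on chromosome 10 from 62133090 to 62134763 on the plus strand. It had 38 reads in E14 and 66 in E14-Sox2TA/WT, or a TPM of 1.004 and 1.57, and was 1.57-fold higher (1.04 to 2.40). In the GENCODE annotation, 273 bases of its exons overlap exons of Fam241b on the opposite strand, which had 1073 and 318 reads. Whether the counting used strand is not given in the sources used here, so reads of these genes may not be separated.

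Ptf1a drives the exocrine pancreas and the choice of a GABAergic over a glutamatergic fate in the cerebellum, retina and dorsal horn. It lies on chromosome 2 from 19445663 to 19447501 on the plus strand. It had 45 reads and a TPM of 1.22 in E14, and 76 reads and a TPM of 1.85 in E14-Sox2TA/WT. It was 1.52-fold higher (1.03 to 2.24), so the lower bound lies close to no change. Its antisense gene Ptf1aos had 0 reads in both libraries. The TPM of Ptf1a was 1.22 times that of Neurog3 in E14 (0.774 to 1.93) and 1.18 times in E14-Sox2TA/WT (0.837 to 1.67), so their order was not resolved in either.

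Atoh1 specifies cerebellar granule cells, hair cells of the inner ear and secretory cells of the gut. It lies on chromosome 6 from 64729125 to 64731245 on the plus strand, in 1 exon. It had 4 reads in E14 and 11 in E14-Sox2TA/WT, or a TPM of 0.061 and 0.19. The ratio of 3.09 (0.916 to 13.3) did not exclude the absence of a difference at this depth.

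Among the differentiation factors, Neurod1 is active in young neurons of many regions and in endocrine cells of the pancreas. It lies on chromosome 2 from 79452637 to 79456636 on the minus strand. It had 345 reads in E14 and 237 in E14-Sox2TA/WT, or a TPM of 5.73 and 3.52, and was 1.63-fold lower (1.38 to 1.93). Of its 2680 stretches of 50 nt, 153 also occur in transcripts of Cerkl, a gene annotated over it on the same strand, which had 19 and 31 reads. None of the stretches of the other 8 members occurred in the same orientation in transcripts of another gene, a member included. The reverse orientation was not searched for stretches, so that search does not cover genes on the opposite strand. In the GENCODE annotation, 154 bases of Neurod1 exons overlap exons of Gm26755, a noncoding RNA gene on the opposite strand. Gm26755 has no read counts under that symbol, so its reads may not be separated from those of Neurod1.

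Neurod2 and Neurod6 act together in postmitotic excitatory neurons of the cortex and hippocampus. Neurod2 lies on chromosome 11 from 98325415 to 98329645 on the minus strand and had 137 reads in E14 and 21 in E14-Sox2TA/WT. Its TPM was 1.81 and 0.226, 8.02-fold lower (5.04 to 13.4). With reads scaled by library total the difference was 6.33-fold. Neurod2 has 2 RefSeq transcript models, whose part in this gap was not tested. Neurod6 lies on chromosome 6 from 55677818 to 55681263 on the minus strand and had 194 and 31 reads. Its TPM was 3.74 and 0.528, 7.09-fold lower (4.83 to 10.7). The intervals of Neurod2 and Neurod6 overlap, and each lies wholly above that of Neurog2.

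Neurod4, also known as Math3, acts in the retina, hindbrain and sensory ganglia and went the other way. It lies on chromosome 10 from 130268152 to 130280254 on the minus strand. It had 137 reads in E14, the same number as Neurod2, and 436 in E14-Sox2TA/WT. Its TPM was 1.67 and 4.82, 2.88-fold higher (2.37 to 3.52). It ranked below Neurod1, Neurod6 and Neurod2 among the Neurod genes of the E14 library, although its interval overlapped that of Neurod2, and above all of them in E14-Sox2TA/WT. The TPM of Neurod1 was 3.42 times that of Neurod4 in E14 (2.80 to 4.20) and 0.731 times in E14-Sox2TA/WT (0.621 to 0.858). For Neurod6 over Neurod4 the values were 2.23 (1.79 to 2.80) and 0.109 (0.073 to 0.158). Hence, the order of these genes was turned within the libraries themselves.

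**Figure D2:**
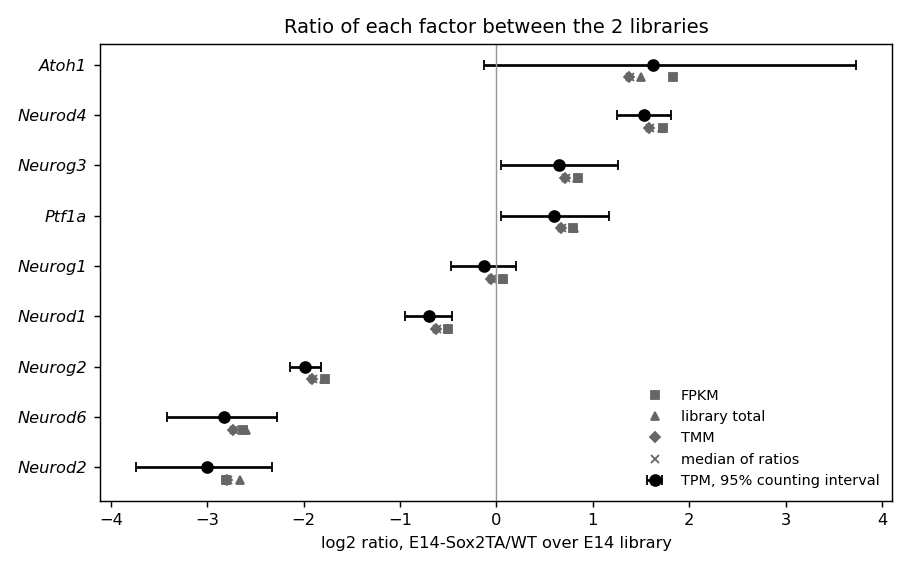
Log2 ratio of the E14-Sox2TA/WT to the E14 library for each factor, from TPM with its 95% counting interval (black) and, in grey below it, from FPKM or from reads scaled by library total, TMM factors or median of ratios. Neurod2, Neurod6, Neurog2 and Neurod1 lie below 0 and Neurod4, Ptf1a and Neurog3 above 0 with every scaling, while Neurog1 changes sign and the interval of Atoh1 holds 0.

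With a lower floor, a TPM of 1 or more in either library, 8 of the 9 members could be compared, all but Atoh1. By a fold change above 2, Neurog2, Neurod2 and Neurod6 were lower and Neurod4 was higher. Neurod2 and Neurod6 reached the floor in E14 alone and so had to be lower. Among all 18558 genes at this floor, 18.9% were lower and 19.3% were higher by that fold. The counting interval excluded no change for 7 of the 8 members, all but Neurog1, and for 86.8% of all genes, so passing counting error does not set the members apart. The median log2 ratio of the 8 members, with 1 added to each TPM, was -0.34 with a range from -1.83 to 1.12, compared with -0.06 over all genes. That median over all genes moved to 0.11 with FPKM and with reads scaled by library total. Relative to a shift of this size, no member other than Neurog1 changed direction.

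The determination members (Neurog1, Neurog2, Neurog3, Atoh1 and Ptf1a) had a summed TPM of 32.2 in E14 and 13.6 in E14-Sox2TA/WT, 2.37-fold lower (2.16 to 2.59). The differentiation members had 12.96 and 9.10, 1.42-fold lower (1.29 to 1.58), but 813 and 725 reads, so with reads scaled by library total the log2 difference was only -0.12. Neurog2 held 58.1% of the summed TPM of the 9 members in E14 and 29.3% in E14-Sox2TA/WT. Neurod4 held 3.71% and 21.2%. Without Neurog2, the other 8 members had a summed TPM of 18.9 and 16.1, 1.18-fold lower (1.08 to 1.29), and 1051 and 1032 reads. This small difference depended on the scaling, with a log2 ratio of -0.037 with FPKM and 0.017 with reads scaled by library total. The difference in the total was therefore mostly that of Neurog2, while the other members changed in their shares.

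**Figure D3:**
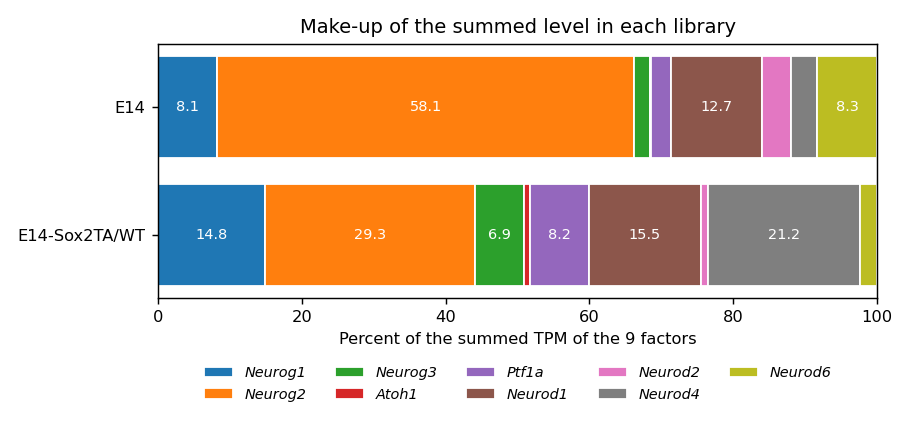
Share of each factor in the summed TPM of the 9 factors, in percent, for the E14 library (top) and the E14-Sox2TA/WT library (bottom), with shares above 5% printed. Neurog2 goes from 58.1% to 29.3% and Neurod4 from 3.71% to 21.2%.

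In the E14 library, the order of levels was Neurog2, Neurod1, Neurod6, Neurog1, Neurod2, Neurod4, Ptf1a, Neurog3 and Atoh1. The intervals of Neurod6 and Neurog1 overlapped, as did those of each neighbouring pair from Neurod2 to Neurog3. In the E14-Sox2TA/WT library, the order was Neurog2, Neurod4, Neurod1, Neurog1, Ptf1a, Neurog3, Neurod6, Neurod2 and Atoh1. There, the intervals overlapped between Neurod1 and Neurog1, between Ptf1a and Neurog3, and between Neurod2 and Atoh1.

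The E protein partners were far more abundant than the members. Tcf3 had a TPM of 112 in E14 and 109 in E14-Sox2TA/WT, and this small difference turned direction with FPKM and with reads scaled in the other ways. Tcf4 had 39.5 and 21.5, 1.84-fold lower (1.78 to 1.90), and Tcf12 had 180 and 101, 1.78-fold lower (1.74 to 1.83). The Id inhibitors did not move together. Id1 was 1.72-fold higher (1.64 to 1.80), at 113 and 194, Id3 was 1.29-fold higher (1.25 to 1.34), at 284 and 368, and Id2 was 1.14-fold higher (1.10 to 1.19), at 137 and 157. Id4, the member of this group most tied to neural progenitors, was 3.65-fold lower (3.46 to 3.84), at 66.8 and 18.3.

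Among the 8 Hes and Hey repressors, 5 were lower and 3 (Hes3, Hes7 and Heyl) were higher. Their median log2 ratio was -0.38. Hes5, a Notch target in neural progenitors, had the largest difference and was 4.33-fold lower (3.90 to 4.82), from a TPM of 52.8 to 12.2. Hes6, which opposes Hes1 and is itself induced by neurogenins, was the most abundant and was 3.31-fold lower (3.16 to 3.47), from 216 to 65.4. Thus, an activator, Neurog2, and a repressor of proneural genes, Hes5, were lower in the same library, with intervals that overlap.

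**Figure D4:**
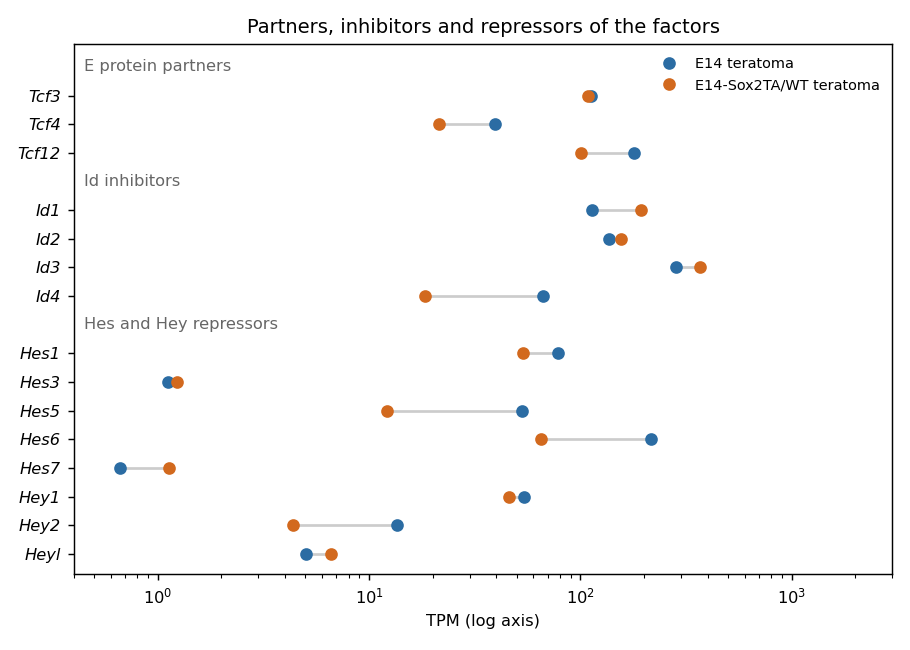
TPM on a log axis of the E protein partners, the Id inhibitors and the Hes and Hey repressors in the E14 (blue) and E14-Sox2TA/WT (orange) teratoma libraries, 1 library per group, with no error drawn. Id1, Id2 and Id3 are higher and Id4 lower in E14-Sox2TA/WT, and Hes5 and Hes6 show wide gaps.

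Of the 12 genes in a list of other neural bHLH factors, 10 had a TPM of at least 1, of which 7 were lower and 3 (Atoh8, Olig3 and Nhlh2) were higher. Their median log2 ratio was -0.83.

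Genes known to act downstream of proneural factors were lower in 13 of 14 cases, whereas 52.5% of all genes at the floor were lower. The median log2 ratio of the list was -1.49, with a range from -3.10 to 0.02. Rnd2, a small GTPase of migrating neurons and a target of Neurog2, had the highest TPM of the list in E14 and was 1.93-fold lower (1.83 to 2.03), from a TPM of 119 to 61.8. Myt1l, a zinc finger factor of neurons, had the largest difference and was 14.8-fold lower (13.0 to 16.8), from 18.0 to 1.22. Only Rcor2, a corepressor subunit, was not lower, at 67.6 and 68.7 with a ratio interval of 0.976 to 1.06, and Ebf1 (829 and 839 reads) differed little and turned direction with reads scaled by library total. Neuron markers, with a median of -2.26, and neural progenitor markers, with a median of -1.49, were lower in the same library, and the part of cell composition in these values was not tested.

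Lineage genes were then read beside the member that marks each lineage. A gene that reached the floor in 1 library alone had to be higher there, so these counts and medians are descriptions only. Among cortical glutamatergic genes, beside Neurog2, Neurod2 and Neurod6, 5 of the 7 with a TPM of at least 1 were lower, with a median log2 ratio of -1.92. Fezf2, a factor of forebrain and deep-layer neurons, was 62.6-fold lower (40.3 to 103). Eomes was higher, at a TPM of 4.24 and 7.65. Eomes is also a gene of early mesendoderm.

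Ptf1a was somewhat higher, but among the GABAergic genes linked to it 7 of 11 were lower, with a median of -0.42. Of these, Prdm13 (148 and 144 reads) turned direction with reads scaled by library total. Gad1, which makes GABA, was 12.7-fold lower (11.3 to 14.3), and Slc32a1, which loads it into vesicles, was 18.2-fold lower (15.1 to 22.2). Pax2, Tfap2a, Tfap2b and Kirrel2 were higher, of which Kirrel2 differed most, with a TPM of 2.18 and 6.77. Gad1 and Slc32a1 are expressed by GABAergic neurons of every origin.

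Of the genes linked to Atoh1, 5 of 6 were lower, with a median of -2.14, while Atoh1 itself had few reads in either library. Lhx2, also a factor of the telencephalon and eye, was 30.8-fold lower (25.3 to 37.8), and Zic1 was 5.82-fold lower (5.52 to 6.13). Myo7a, a myosin of hair cells and other epithelia, was higher, at a TPM of 0.816 and 2.87. Barhl1, Barhl2 and Lhx9 reached the floor in E14 alone, and Myo7a in E14-Sox2TA/WT alone. Below the floor, Gfi1 had 15 reads in E14 and 68 in E14-Sox2TA/WT and was higher (2.28 to 7.58). Pou4f3 had 10 and 4 reads, with an interval that holds no change.

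Sensory neuron genes, beside Neurog1, were divided, with 6 lower and 4 higher and a median of -0.53. The neurotrophin receptor Ntrk2 had the highest TPM of the list in E14 and was 4.72-fold lower (4.48 to 4.97). Retina genes, beside Neurod4, were lower in 4 of 5 cases, with a median of -1.83, which was -0.15 over all 9 genes without a floor. Six6, an eye field and hypothalamic factor, was 80.7-fold lower (60.3 to 110), and Otx2 had a TPM of 45.2 and 36.4. Prdm1 was the gene that was higher, at 2.61 and 3.12. The photoreceptor genes Crx, Nrl and Rcvrn were at or near 0 in both libraries, with a TPM of at most 0.226, beside the higher Neurod4.

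Endocrine pancreas genes, beside Neurog3 and Neurod1, were lower in 6 and higher in 5 of 11 cases, with a median of -1.20, which was 0 over all 17 genes without a floor. Chgb, a granule protein of neurons as well as endocrine cells, was 4.96-fold lower (4.74 to 5.20), and Nkx2-2, which also marks the ventral neural tube, was 5.94-fold lower (5.34 to 6.63). Among the higher genes, Mafa, Gcg, Ghrl and Iapp reached the floor in E14-Sox2TA/WT alone. Ghrl, the ghrelin gene, had 0 reads in E14 and 52 in E14-Sox2TA/WT, at least 15.5-fold higher in TPM against the 3 reads that a count of 0 allows. Ins1 and Ins2 had 0 reads in both libraries, so insulin transcripts were not detectable at this depth. The other genes below the floor were Pdx1 with 5 and 6 reads, Pax4 with 3 and 3, Ppy with 0 and 3, and Rfx6 with 8 and 93. Rfx6 was thus higher in E14-Sox2TA/WT, at a TPM of 0.092 and 0.993.

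**Figure D5:**
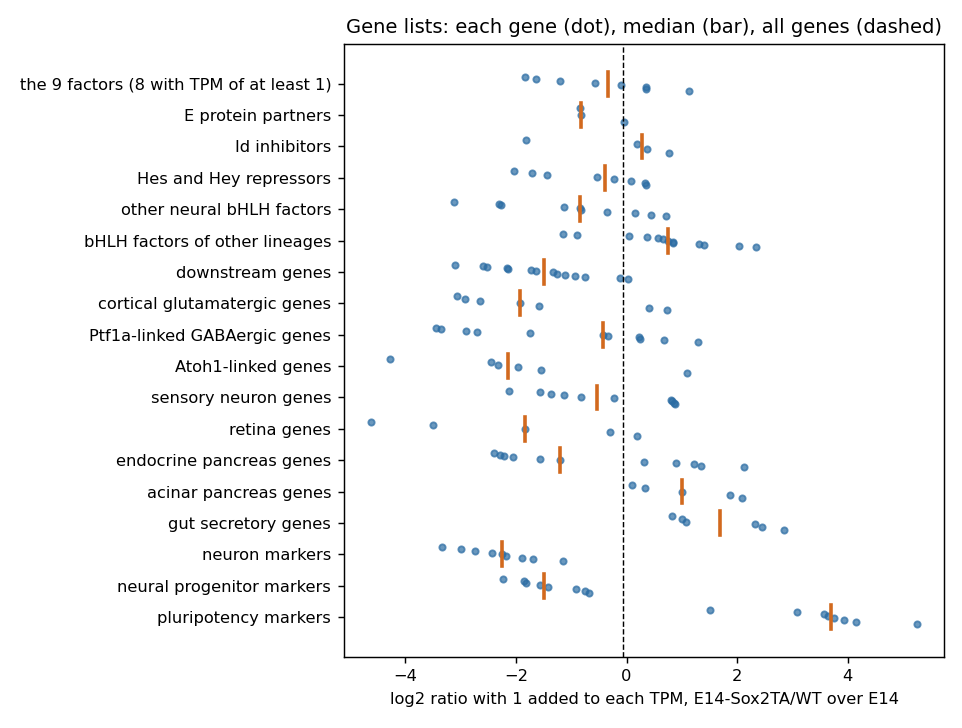
Log2 ratio of the E14-Sox2TA/WT to the E14 library, with 1 added to each TPM, for each gene whose TPM reached 1 in either library (dots), by gene list, with the list's median (orange bar) and the median of all genes (dashed line, -0.06). The factors spread on both sides, from -1.83 to 1.12, while all neuron markers lie on the left and all pluripotency markers on the right.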

How the data were processed

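Polyadenylated RNA of 1 E14 and 1 E14-Sox2TA/WT teratoma sample was sequenced (Illumina NovaSeq). For each gene, the authors deposited read counts, as whole numbers without normalization, and FPKM and TPM, which scale by transcript length and library. The submitters' processing notes name bcl2fastq 2.20.0, Trimmomatic, HISAT2 2.1.0 and StringTie 2.1.3b and the builds mm10 and hg19, with no roles, and the deposited table is named for mm10. Coordinates and promoters are from RefSeq on GRCm38.p6, to which 45679 of 45777 gene identifiers matched, and exons, overlaps and shared stretches from GENCODE on GRCm38.

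Each gene was compared by its TPM ratio. The 95% Clopper-Pearson interval, from the reads, covers counting error only. No p-value was computed. Protein identity between members was not analysed here. The DEG rule was that of the study. Median log2 ratios of 22 lists used 1 added to each TPM and a TPM of at least 1. A bound against 0 reads takes 3 reads at the median worth of 1 read in TPM. Sums have a normal interval on the log scale from Poisson errors. The members and lists were chosen with earlier results of these data known. Named were all members, Sox2, the E proteins and Id genes, and in other lists the gene with the highest TPM and the gene with the largest change, of which some are not reported here. Some genes behind counts of 5 or fewer, the photoreceptor genes and the Y-linked genes were chosen after their values were seen. So were the endocrine, acinar and Atoh1-linked genes and cartilage markers named below the floor, and the promoter runs shared by members. Alternatives covered FPKM, library totals, edgeR's TMM factors, median-of-ratios factors, pseudocounts, TPM floors and folds. The interval of the count ratio, scaled by library total, was checked on simulated Poisson counts. These hold counting error alone, so the check covers neither the scaling to TPM nor the spread among teratomas. The software was edgeR 4.0.16 in R 4.3.3, and scipy 1.17.1, pandas 2.3.3 and numpy 2.4.6 in Python 3.11.15.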

Additional observations from a re-analysis of the deposited data

How the results depend on the processing

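No paired analysis was possible because each group holds a single library, and for the same reason none was left out. Depth limits Atoh1, with 4 and 11 reads, and the bounds of Neurog3 and Ptf1a, which lie near no change. The spread among teratomas was not measured. The cause of the shifts below was not tested, except that a floor or fold changes which genes can pass.

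Of the 9 members, 8 kept their direction under all 6 alternatives. With FPKM, Neurog1 had a log2 ratio of 0.07. With 5 added to each TPM, a construction that shrinks low genes, Neurod2 was at -0.38 and Neurod4 at 0.56. Members past the DEG rule were 1 lower and 0 higher, and became 3 and 1 with a TPM floor of 1 and 3 and 2 without a floor. For all genes, 2167 lower and 1253 higher became 3508 and 3585 with a floor of 1, 6015 and 9156 without a floor, 3742 and 2109 at a fold above 1.5, and 1015 and 663 above 3. The log2 ratio of summed levels, with FPKM, was -1.04 for determination members, -0.31 for differentiation members and -0.79 for all members. With reads scaled by library total it was -0.12 for differentiation members and -0.74 for all members. For the members other than Neurog2, an alternative chosen after seeing the data, it was -0.24 with TPM, -0.037 with FPKM and 0.017 with library totals. The median of all genes, -0.06 with TPM, was 0.11 with FPKM, 0.11 with library totals, 0.0063 with TMM, 0.011 with median of ratios, -0.042 with a pseudocount of 5, -0.18 with a floor of 10 and 0 without a floor. The acinar median was 2.68 with a pseudocount of 0.1 and 0.045 without a floor, and the gut secretory median was 0.70 with a pseudocount of 5. Without a floor, the medians were -0.10 for all members, -0.98 for cortical glutamatergic, -0.15 for retina and 0 for endocrine pancreas genes, and with a pseudocount of 0.1 the retina median was -3.56.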

Other observations

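Class II bHLH factors of other lineages differed in the opposite direction from most neural ones. Of 19 such genes, 13 had a TPM of at least 1, and 11 of these were higher in E14-Sox2TA/WT, with a median log2 ratio of 0.75, compared with -0.83 for the other neural bHLH factors and -0.06 for all genes. Myog, a factor of skeletal muscle, and Tal1, a factor of blood and endothelium, were lower, with a TPM of 19.9 and 10.2 and of 3.70 and 1.11. Twist1, a mesenchymal factor, had the highest TPM of the list in E14-Sox2TA/WT and was 1.72-fold higher (1.56 to 1.90), at 15.7 and 27.0. Hand1, a factor of extraembryonic and lateral mesoderm, had 0 reads in E14 and 207 in E14-Sox2TA/WT, at least 61.8-fold higher in TPM against the 3 reads that a count of 0 allows.

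Gut secretory genes, the lineage that Atoh1 marks in the intestine, were higher in 6 of the 6 genes that reached the floor, with a median of 1.69, but Spdef, Spink4, Fcgbp and Clca1 reached it in E14-Sox2TA/WT alone and so had to be higher. Agr2 was 7.99-fold higher (6.67 to 9.63), at a TPM of 7.24 and 57.9. Acinar pancreas genes, the lineage of Ptf1a, were higher in the 5 genes that reached it, with a median of 1.001, of which Cela2a, Prss1 and Nr5a2 did so in E14-Sox2TA/WT alone. Nr5a2, also a gene of pluripotent cells and liver, was 7.13-fold higher (5.69 to 9.03), and Cela2a had 0 and 80 reads, at least 23.9-fold higher by the same measure. Of the acinar list, 7 of 12 genes stayed below a TPM of 1 in both libraries. Among them, Cpb1 (27 and 11 reads), Rbpjl (32 and 8) and Cel (12 and 0) were lower in E14-Sox2TA/WT. The intervals of Cpa1 (25 and 23 reads), Ctrb1 (8 and 5) and Pnlip (21 and 31) held no change, and Cela3b had 0 reads in both.

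Genes around the 4 members with a fold above 2 and a TPM of at least 1 were also listed. These members were picked for their large ratio, so a median of many neighbours would tend to lie nearer to 0 in any case. The values are descriptions only, and whether these members differ from their regions was not tested. Within 2 Mb of Neurog2, 18 other genes at a TPM of at least 1 had a median log2 ratio of 0.35, and 11 of them were higher, while Neurog2 stood at -1.83. Around Neurod4, 40 genes had a median of -0.39, while Neurod4 stood at 1.12. Around Neurod6, 27 genes had a median of -0.15 beside -1.63 for Neurod6, and around Neurod2, 85 genes had a median of 0.02 beside -1.20 for Neurod2. Single neighbours reached past each member, with a lowest value of -1.84 near Neurog2, -2.70 near Neurod6 and -2.92 near Neurod2. The highest value near Neurod4 was 2.31. Of the members not picked, Neurog1 (-0.10) and Atoh1 (0.16) lay nearer to 0 than their neighbour medians of -0.24 and 0.53. Neurog3, Ptf1a and Neurod1 lay further from 0 than theirs. The chromosomes of the members had medians between -0.11 and 0.20.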
